A study of Mus musculus with 12 samples.

Results

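Gene expression was compared between libraries labelled Foxd3-/- and Foxd3fl/fl of mouse embryonic stem cells kept in 2i medium. The comparison was chosen by its labels and by the table that holds it, not by any measured value. It takes 4 of the 12 libraries of the series, 2 in each group, and 11637 of the 19718 genes of the table, those whose mean reached 1 FPKM in 1 group or both. FPKM is a fragment count corrected for the length of the transcript and the size of the library. The cells of both groups were Foxd3fl/fl;Cre-ER embryonic stem cells, which carry a floxed Foxd3 gene and a Cre recombinase that an oestrogen receptor ligand activates. The Foxd3-/- group received 4-hydroxytamoxifen at 2 µM for 3 days, and the Foxd3fl/fl group (called floxed) was left untreated. Both grew in serum-free N2B27 with leukemia inhibitory factor (LIF), the MEK inhibitor PD0325901 at 0.4 µM and the GSK3β inhibitor CHIR99021 at 3 µM. No group received tamoxifen without the floxed allele, so the agent and the allele cannot be told apart. The promoter that drives Cre-ER, the deleted segment and the number of clones are not stated in the labels. Separate cultures are not named for the replicates, so the p-values rest on a spread between libraries that may be only technical.

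Foxd3 is a transcription factor of the forkhead family, known from pluripotent cells and the neural crest. Embryonic stem cells in 2i are held in the naive state, which resembles the epiblast before implantation: inhibition of MEK blocks the ERK signal that drives exit from this state, and inhibition of GSK3 stabilises β-catenin and relieves repression by Tcf7l1. LIF acts through the kinase Jak1 and the transcription factor Stat3, and with it a network of factors that includes Nanog, Klf4, Tbx3, Esrrb and Tfcp2l1 maintains self-renewal.

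The 4 libraries separated by group. Across the genes tested, Pearson's r of the log2 values was 0.995 between the Foxd3-/- libraries and 0.996 between the floxed libraries, and 0.958 to 0.965 between groups. Between 11033 and 11427 genes per library reached 1 FPKM. No file gives the depth of a single library. In the authors' deposited table, the mean reads of a group, already scaled by the authors, summed to 24278900 in the libraries labelled Foxd3-/- and 27062500 in the floxed ones. Summed FPKM was 450305 and 451924 in the labelled Foxd3-/- libraries and 475737 and 464242 in the floxed libraries. Median-of-ratios scaling, which sets the median gene of each library equal, gave factors of 1.08 and 1.09 against 0.935 and 0.921. It moved the median log2 difference of all genes tested from 0.19 to -0.01, so each result is given after scaling and calls are made in both fits.

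Foxd3 (ENSMUSG00000067261, chromosome 4, 99656299 to 99658622, plus strand, GRCm38), the gene named in the labels, measured 2.51 and 2.42 FPKM in the floxed libraries and 2.07 and 2.45 FPKM in the libraries labelled Foxd3-/-. The groups overlapped as deposited, and after scaling both labelled Foxd3-/- libraries lay below both floxed ones. The log2 difference was -0.09 as deposited (limma adjusted p = 0.461) and -0.25 after scaling (95% interval -0.48 to -0.02, limma adjusted p = 0.0586). It did not pass in either fit. After cyclic loess normalization, which removes differences that depend on the expression level, the value was -0.45 and passed (limma adjusted p = 0.0074). In the authors' deposited table Foxd3 stood at 376 mean reads in the libraries labelled Foxd3-/- and 221 in the floxed ones, a fold of 1.7 in the opposite direction (p adjusted here 9.4e-06). Relative to the median gene, the FPKM ratio of Foxd3 lay 1.12 log2 units below its ratio of mean reads. Foxd3 shared this property with 98 other genes tested, out of 11637, whose ratios parted by over 1. The libraries of the first group are therefore called by their label throughout.

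**Figure D1:**
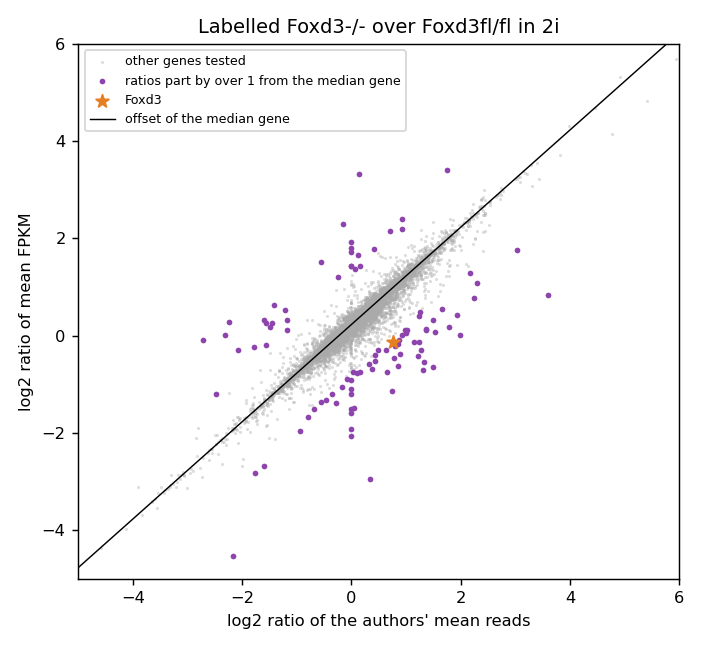
Log2 ratio of mean FPKM (vertical axis) against log2 ratio of the authors' mean reads (horizontal axis), labelled Foxd3-/- over floxed in 2i, each point a gene tested. 2 genes lie outside the range drawn; purple points are the 99 genes whose ratios part by over 1 log2 unit from the median gene, and Foxd3 (star) lies among them, above 0 in reads and near 0 in FPKM.

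In the text below, "rose" and "fell" are written only of genes that passed limma's test on log2(FPKM + 1) at an adjusted p under 0.05 both as deposited and after scaling, and the log2 differences are those after scaling, labelled Foxd3-/- minus floxed. On this scale the change of low genes is understated. Genes whose mean lay under 1 FPKM in 1 group were tested only through the other group. Their calls describe them and support nothing. As deposited, 5573 genes (47.9%) lay higher in the libraries labelled Foxd3-/-, and 2291 (19.7%) lay lower. After scaling, 3555 (30.5%) were higher and 3903 (33.5%) lower. The genes that rose in both fits were the 3555 of the scaled fit, and the genes that fell in both were the 2291 of the fit as deposited. The shares of 30.5% and 19.7% are thus the background over all levels for the lists below. Among genes over 100 FPKM, 7.0% rose and 60.0% fell. That is the nearer background for the glycolysis, respiratory chain, mitochondrially encoded and ribosomal protein lists, whose median levels lay over 100 FPKM. From 2 to 5 FPKM 42.7% rose and 14.4% fell, and from 5 to 10 FPKM 40.9% rose and 11.2% fell. Those are the nearer backgrounds for lists with median levels in these ranges. FGF and ERK response (4.69 FPKM) lay in the first. Formative and primed epiblast (8.31), BMP (6.26), YAP and TEAD targets (7.13) and Notch (7.93) lay in the second. At least 2-fold changes in both fits were found for 315 genes (2.71%) upward and 181 (1.56%) downward. Of the 5846 genes that passed both fits, the authors' deposited p-values, adjusted here, called 5273 (90.2%) in the same direction and 13 in the opposite one.

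The change depended on the expression level. The median log2 difference was 0.20 in the 1354 genes with a mean under 2 FPKM, 0.05 in the 2205 genes from 10 to 20 FPKM, -0.27 in the 1086 genes from 50 to 100 FPKM and -0.43 in the 852 genes over 100 FPKM. In this last class 60.0% of genes fell and 7.0% rose. These 852 genes made up 58.0% and 57.1% of summed FPKM in the floxed libraries and 52.3% and 51.4% in the labelled Foxd3-/- libraries. It also varied with transcript length: the median was -0.47 for the 326 genes with under 1 kb of exon sequence and 0.07 for the 2045 genes with over 8 kb. After cyclic loess, 3231 genes (27.8%) were higher and 3374 (29.0%) lower, and lists of very high or very short genes are given with that value beside the scaled one. Cyclic loess works on level and does not remove the trend with length. After it the genes under 1 kb still had a median of -0.31, and those over 8 kb 0.03.

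**Figure D2:**
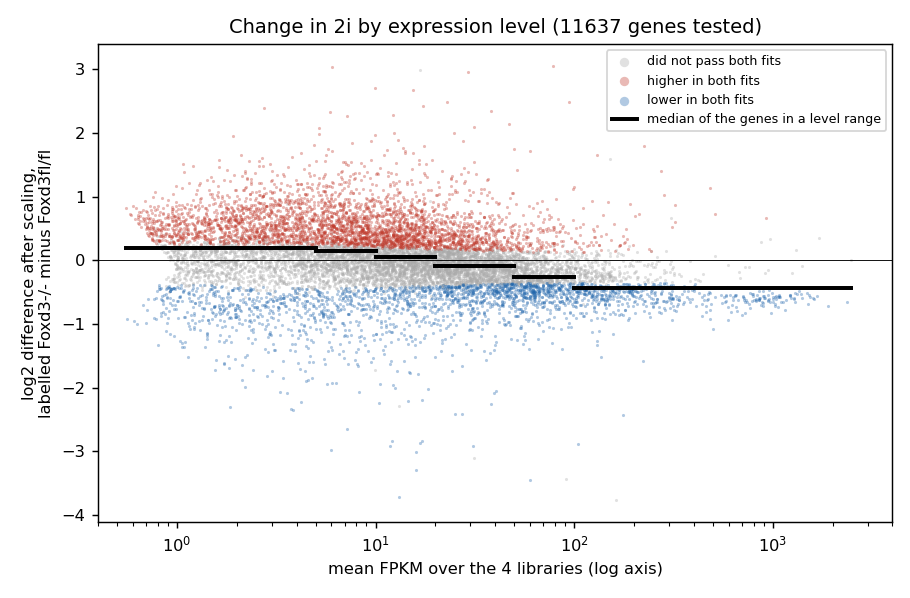
Log2 difference after scaling (vertical axis) against mean FPKM over the 4 libraries (horizontal, log axis), each point 1 of 11637 genes, with the median of each level range as a black line. The medians step down from 0.20 under 2 FPKM to -0.43 over 100 FPKM.

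**Figure D3:**
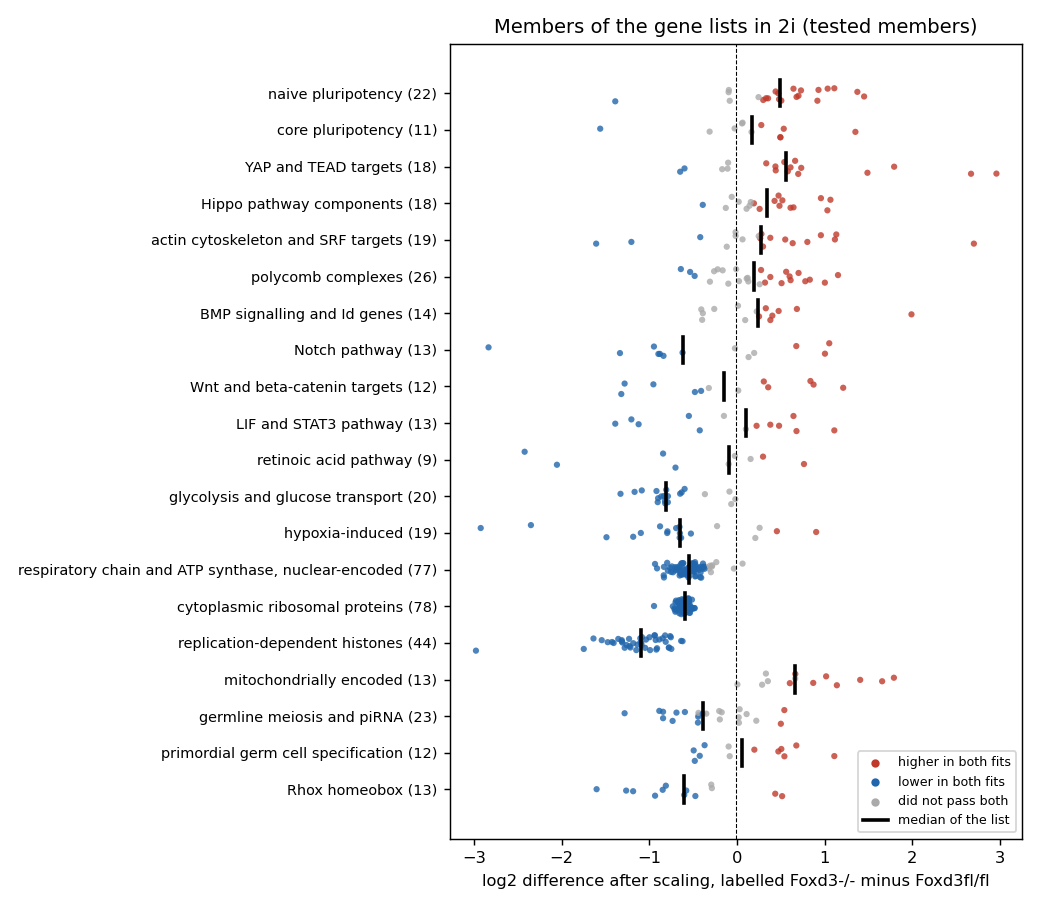
Log2 difference after scaling for each tested member of 20 gene lists (number tested in brackets), black bars marking the list medians and the dashed line the median of all genes tested, -0.01. The ribosomal proteins form the tightest group and lie wholly below 0, whereas YAP and TEAD targets reach 2.96.

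The markers of embryonic stem cells described here, Pou5f1, Sox2, Nanog, Esrrb and Utf1, were all present. Pou5f1 (Oct4), the core factor of pluripotency, measured 423 and 441 FPKM in the floxed libraries and 404 and 410.1 FPKM in the libraries labelled Foxd3-/- (log2 difference -0.31), and did not pass both fits; after cyclic loess the difference had the opposite sign, 0.17. Utf1 likewise did not pass, at 33.3 and 36.3 against 36.8 and 49.2 FPKM. Sox2, the partner of Oct4, rose from 105 and 87.6 to 157 and 169 FPKM, a log2 difference of 0.53. Of the 11 core pluripotency genes, 5 rose and 1 fell. The fall was in Lin28a, an RNA-binding protein that blocks maturation of let-7 microRNAs, which went from 51.9 and 51.5 to 18.6 and 21 FPKM (-1.56, limma adjusted p = 1.15e-05). The libraries of the 2 groups did not overlap for Sox2 or Lin28a.

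Naive pluripotency genes were mostly higher: 17 of 22 rose and 1 fell, with a median of 0.49 against -0.01 for all genes tested, and after cyclic loess the median was 0.71. Nanog measured 145 and 142 FPKM in the floxed libraries and 273 and 287 in those labelled Foxd3-/-. The germ-line and naive-state factor Dppa2 rose from 5.59 and 5.4 to 16.7 and 20.2 FPKM, while its partner Dppa4 rose from 28.9 and 28.5 to 53.9 and 55 FPKM. Klf4, Klf5 and Klf2, the 3 Krüppel-like factors of the list, rose by 1.11, 0.44 and 0.30, though Klf2 did not pass in the authors' deposited table (p adjusted here 0.169). Nr5a2, a nuclear receptor that can activate Pou5f1, rose from 15.7 and 12.3 to 32.2 and 36.8 FPKM. Esrrb, another nuclear receptor of the network, did not pass both fits (189 and 171 against 196 and 198 FPKM, with 0.29 after cyclic loess), and neither did Dppa3 (234 and 228 against 258 and 251 FPKM). Stat3 went against the list: it fell from 86.8 and 77.1 to 36.5 and 35.3 FPKM, a log2 difference of -1.39 (SE 0.06, limma adjusted p = 1.34e-05).

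Genes of the formative and primed epiblast, the states that follow naive pluripotency, were split, with 6 of 15 tested members higher and 6 lower, and 4 and 6 after cyclic loess. Otx2, a homeobox factor of the primed state, rose from 5.58 and 5.65 to 9.89 and 11.1 FPKM, and Zic2 rose from 7.32 and 7.8 to 11.8 and 13.9 FPKM. Lef1 fell from 3.3 and 2.62 to 0.625 and 0.948 FPKM. The de novo DNA methyltransferases Dnmt3b and Dnmt3a fell (-0.97 and -0.72 on the log2 scale), Dnmt3b from 21.2 and 19.4 to 11.2 and 12 FPKM. Dnmt3l, their catalytically inactive cofactor, moved the other way, from 14.3 and 13.6 to 40.5 and 47.9 FPKM (1.38). In the wider list of DNA methylation and demethylation, 5 of 12 members rose and 4 fell. Uhrf1, which brings the maintenance methyltransferase to replicated DNA, fell from 230.2 and 207 to 152 and 159 FPKM, while Dnmt1 itself did not pass both fits (102 and 92.2 against 90.4 and 96.3 FPKM). The 3 Tet dioxygenases, which oxidise methylcytosine, rose: Tet2 went from 2.52 and 2.3 to 4.67 and 4.87 FPKM, with log2 differences of 0.21 for Tet1 and 0.57 for Tet3.

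**Figure D4:**
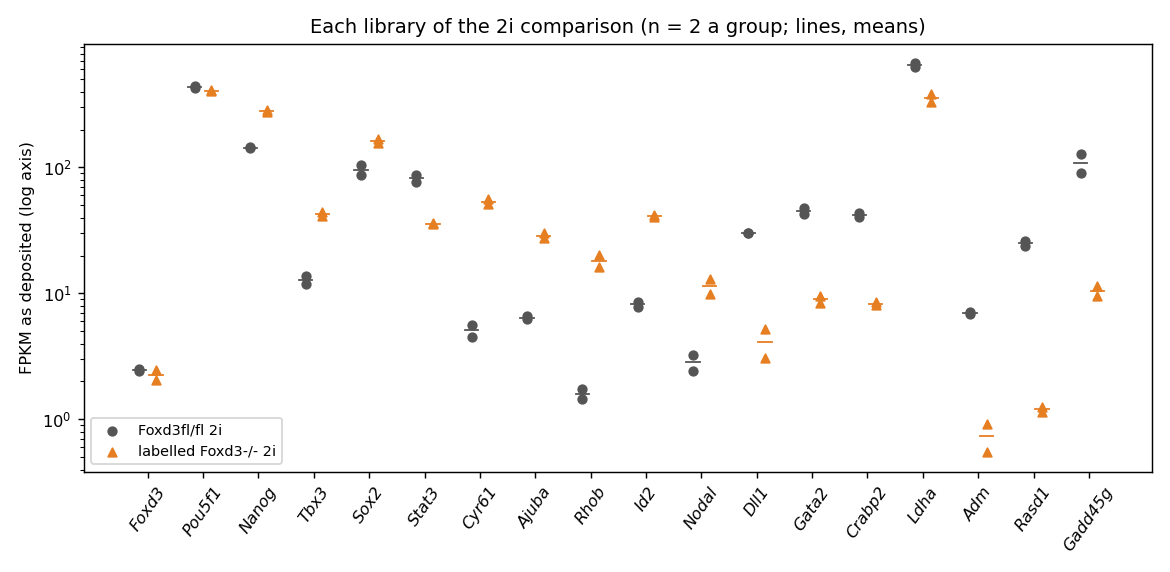
FPKM as deposited (vertical, log axis) of 18 genes in each floxed library (grey circles) and each library labelled Foxd3-/- (orange triangles), with group means as lines (n = 2 a group). Foxd3 overlaps between the groups; of the others drawn, Nanog, Tbx3, Sox2, Cyr61, Ajuba, Rhob, Id2 and Nodal are higher and Stat3, Dll1, Gata2, Crabp2, Ldha, Adm, Rasd1 and Gadd45g lower in the libraries labelled Foxd3-/-.

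Markers of other cell types were mostly low. In bulk RNA, fewer cells of a type and less RNA per cell cannot be told apart. The 22 fibroblast genes summed to 334 and 312 FPKM in the floxed libraries and 361 and 349 in the libraries labelled Foxd3-/-, nearly all of it Fn1 (315 and 289 against 325 and 314 FPKM), and Dcn, Lum and Prrx1 were under 0.1 FPKM in every library. Of 9 tested members 5 rose, led by Thbs1 (1.12 and 1.29 to 3.84 and 4.09 FPKM), and 2 fell, among them Thy1 (2.7 and 2.98 to 0.232 and 0.281 FPKM). Cd68 was the 1 macrophage gene tested, and it fell from 107 and 110.4 to 81.7 and 80.6 FPKM. Csf1r, Lyz2, Adgre1 and Fcgr1, which define macrophages more closely, were under 0.1 FPKM in every library. Primitive endoderm genes summed to 192 and 208 FPKM in the floxed libraries against 245 and 248 in the others. In that list 5 of 8 tested members rose and 1 fell. Gata6 and Gata4, the factors that set up this lineage, rose at low levels, from 0.287 and 0.389 to 1.14 and 0.998 FPKM and from 0.585 and 0.397 to 1.65 and 1.42 FPKM, and Lamb1 fell from 18 and 21.1 to 6.07 and 6.02 FPKM. Gata6 and Gata4 had means under 1 FPKM in the floxed libraries and were tested only through the libraries labelled Foxd3-/-. Both count among the 5 rises, and the list held 18 genes in all. The part of other cell types in the results was not tested.

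The trophectoderm and placenta list had 4 of 11 tested members higher and 3 lower (3 and 5 after cyclic loess), with sums of 129 and 129 FPKM in the floxed libraries against 119 and 130. Gata2, a zinc-finger factor of trophoblast and blood, fell from 48 and 42.7 to 9.58 and 8.44 FPKM (-2.42, SE 0.09). The imprinted trophoblast factor Ascl2 fell from 6.5 and 6.87 to 1.48 and 1.84 FPKM. Tfap2c and Tead4, which act in early trophectoderm, rose by 0.68 and 0.47, and Cdx2 and Plac1 were under 0.1 FPKM in every library. Of the neural crest and mesenchymal genes, 2 of 5 tested members rose and 2 fell, and after cyclic loess 0 were higher and 3 lower. Vim, an intermediate filament protein, fell from 201 and 211 to 101 and 113 FPKM, and Snai1, a repressor of epithelial genes, from 1.72 and 2.13 to 0.269 and 0.285 FPKM. Epithelial junction genes were split, with 7 of 13 higher and 4 lower (7 and 6 after cyclic loess). Cdh1 (E-cadherin) fell from 138 and 134 to 84.5 and 88 FPKM and Epcam from 44.2 and 46 to 26 and 27.5 FPKM, whereas the desmosomal protein Dsp rose from 7.44 and 6.65 to 16.8 and 17.8 FPKM.

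Cyr61 and Ctgf, targets of YAP and TEAD, were among the 20 largest rises. YAP is a coactivator held out of the nucleus by Hippo kinases, and with TEAD factors at DNA it activates genes for matrix, cytoskeleton and Hippo feedback. Of 25 listed targets, 18 were tested; 13 rose and 2 fell, with a median of 0.56, and after cyclic loess 12 were higher and 2 lower. For 1 of them, Lats2, a Hippo kinase counted among the rises, the FPKM and mean-read ratios part by over 1. Cyr61 (Ccn1 in current naming), a secreted matricellular protein, measured 4.53 and 5.64 FPKM in the floxed libraries and 55.8 and 51 FPKM in those labelled Foxd3-/-, a log2 difference of 2.96 (SE 0.11, limma adjusted p = 7.25e-06). Ctgf (Ccn2 in current naming), a related secreted protein, rose from 2.69 and 3.25 to 28.9 and 26.8 FPKM (2.67). Ajuba, a LIM-domain protein that restrains the Hippo kinases, rose from 6.58 and 6.28 to 27.6 and 29.9 FPKM (1.79). Amotl1, an angiomotin that binds YAP, rose from 2.97 and 2.92 to 12 and 11.2 FPKM. F3, the receptor that starts coagulation, and Nuak2, a kinase, fell, with log2 differences of -0.65 and -0.60.

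The TEAD recognition letters GGAATG were searched on both strands of RefSeq promoter windows (GRCm38.p6, 250 bases before to 50 after the start). They occurred in 7 of the 12 tested targets that matched the table by symbol, and in 16.6% of all 27025 genes of the table. By window the shares were 53.8% for the targets and 14.7% for all 32851 windows. The windows of Cyr61 (chr3:145649936-145650235, minus strand) and Ajuba (chr14:54577612-54577911, minus strand) are shown because these targets rose far and hold the letters. Capitals mark the match, which reads CATTCC on the strand shown.
Cyr61: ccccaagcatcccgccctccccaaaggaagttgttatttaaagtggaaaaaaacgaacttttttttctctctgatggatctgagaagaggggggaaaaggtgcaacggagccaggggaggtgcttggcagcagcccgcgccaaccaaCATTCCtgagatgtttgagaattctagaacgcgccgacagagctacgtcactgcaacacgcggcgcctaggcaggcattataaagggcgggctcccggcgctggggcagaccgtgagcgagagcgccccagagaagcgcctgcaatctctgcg
Ajuba: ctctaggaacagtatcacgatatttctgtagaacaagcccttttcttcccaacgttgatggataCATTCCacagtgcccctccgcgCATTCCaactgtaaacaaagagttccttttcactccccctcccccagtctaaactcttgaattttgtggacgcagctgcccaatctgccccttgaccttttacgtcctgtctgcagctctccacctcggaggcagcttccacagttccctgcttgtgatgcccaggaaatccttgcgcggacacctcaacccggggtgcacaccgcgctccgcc
The match in Cyr61 begins 103 bases before the start, and those in Ajuba 186 and 164 bases before it. A match describes the letters only, and no match says only that the letters are not in the window. The list was drawn up as targets of YAP and TEAD, so its share describes the list and not the change in these data. Whether targets with the letters changed more than those without was not tested.

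Hippo pathway components themselves were also higher, with 11 of 18 risen and 1 fallen. The DNA-binding partner Tead1 rose from 18.5 and 16.6 to 43.4 and 44.9 FPKM, whereas Tead2, the most abundant TEAD gene, fell from 90.0 and 91.8 to 80.5 and 81.3 FPKM; its log2 difference was -0.39 after scaling and -0.11 after cyclic loess, where it did not pass, and the call as deposited was lost without either library labelled Foxd3-/- or without floxed replicate 2, and with no trend in the fit. Yap1 rose from 33.2 and 33.4 to 45.6 and 48 FPKM. Vgll4, which competes with YAP for TEAD, rose from 2.35 and 2.55 to 6.85 and 6.31 FPKM, and the upstream regulators Wwc2 and Nf2 rose by 1.03 and 0.52. Wwtr1 (TAZ), the paralogue of YAP, did not pass both fits (13.4 and 14.4 against 14.5 and 15 FPKM). Among 19 actin cytoskeleton and SRF target genes, 11 rose and 3 fell, and after cyclic loess 13 were higher and 2 lower. Rhob, a small GTPase, rose from 1.75 and 1.45 to 16.2 and 20.3 FPKM (2.70). The contractile genes Tagln (3.55 and 4.78 to 11.7 and 11.8 FPKM) and Acta2 (2.8 and 4.35 to 9.51 and 8.48 FPKM) rose from low levels. The 3 members that fell were the immediate-early factors Fos (6.88 and 8.18 to 2.19 and 2.12 FPKM) and Junb (11.2 and 11.5 to 4.48 and 5.89 FPKM) and the cytoplasmic actin Actb (638 and 623 to 554 and 549 FPKM). The call of Actb was lost without Foxd3-/- replicate 2, and after cyclic loess its sign turned (0.11).

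Signalling targets of the 2 inhibited pathways moved both ways. Of 14 FGF and ERK response genes, 7 rose and 4 fell. Dusp4 and Spry1, feedback inhibitors of ERK signalling, fell (-0.77 and -0.65), whereas Dusp6 rose from 0.692 and 0.524 to 1.8 and 1.75 FPKM and Spred1 from 2.6 and 2.06 to 4.4 and 4.86 FPKM. Dusp6 had a mean under 1 FPKM in the floxed libraries and was tested only through the libraries labelled Foxd3-/-. Among FGF ligands and receptors, Fgf17 fell from 6.58 and 6.33 to 2.63 and 2.54 FPKM. Fgfbp1, a carrier that releases FGFs from matrix, rose from 1.37 and 0.841 to 10.1 and 11.5 FPKM (2.33). Fgf4, the main ligand of embryonic stem cells, did not pass both fits (82.7 and 64.7 against 101 and 102 FPKM). In the Wnt and β-catenin list 5 of 12 rose and 5 fell, and after cyclic loess 3 were higher and 5 lower. Tcf7l1, the repressor of the naive network, rose from 15 and 14.1 to 38.3 and 43.7 FPKM (1.21), while Tcf7 and Lef1 fell (-0.95 and -1.28). The feedback gene Axin2 rose from 4.88 and 4.28 to 7.07 and 7.23 FPKM, a call lost after cyclic loess (0.19), and Ccnd1 (cyclin D1) fell from 21.5 and 19 to 8.45 and 9.17 FPKM.

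The LIF and STAT3 pathway had 6 of 13 members higher and 5 lower. Beside Stat3, its receptor subunit Lifr fell by 0.42 (a call lost as deposited without either library labelled Foxd3-/-, without floxed replicate 2, with the replicate block, with no filter on low values and in the authors' deposited p-values), and its feedback inhibitors Socs3 (86.5 and 82.1 to 61.6 and 73 FPKM) and Socs1 (4.04 and 4.38 to 1.6 and 1.75 FPKM) fell. Il6st (gp130), the other receptor subunit, rose from 10.9 and 9.24 to 15.6 and 15.6 FPKM, as did the kinase Jak1 (0.22). The naive targets Klf4 and Tfcp2l1, counted here too, rose. Of 14 BMP pathway genes 7 rose and 0 fell, but after cyclic loess 3 were higher and 4 lower. Id2, an inhibitor of basic helix-loop-helix factors, rose from 7.81 and 8.56 to 40.7 and 41.8 FPKM (1.99, SE 0.07), whereas Id1 did not pass both fits (1.4 and 1.78 against 1.1 and 1.22 FPKM, with -0.61 after cyclic loess, where it passed). The inhibitory Smads, Smad7 and Smad6, rose by 0.68 and 0.38, the second with no call as deposited without Foxd3-/- replicate 2 or after cyclic loess. In the Nodal pathway, 2 of 9 rose and 1 fell, and after cyclic loess 3 were higher and 5 lower. The ligand Nodal rose from 3.26 and 2.41 to 9.85 and 13 FPKM (1.50), but its targets Lefty1 (5.25 and 4.06 against 2.91 and 4.88 FPKM) and Lefty2 (7.85 and 9.01 against 7.11 and 8.87 FPKM) did not pass both fits. After cyclic loess both passed as lower, at -0.58 and -0.42. Foxh1, a forkhead cofactor of Smad2, fell from 37.2 and 41 to 30.5 and 30.5 FPKM.

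Notch signalling passes between neighbouring cells when a ligand such as Dll1 or Jag1 frees the intracellular part of the receptor, which joins Rbpj at target genes of the Hes and Hey families. Of 13 members 3 rose and 7 fell (median -0.62, and -0.80 after cyclic loess). The ligands Dll1 (30.1 and 30.1 to 5.17 and 3.05 FPKM, -2.83) and Jag1 (12.1 and 11.5 to 6.97 and 7.01 FPKM) fell, as did the glycosyltransferases Lfng and Mfng, which tune ligand choice (-0.84 and -0.90). The targets Hes1 (42.5 and 34.7 to 20.5 and 25.3 FPKM) and Hey1 (3.43 and 4.14 to 2.24 and 2.77 FPKM) fell, and so did Hes6 (22.2 and 22 to 9.43 and 9.78 FPKM); the call of Hey1 as deposited was lost without Foxd3-/- replicate 1. Every member that rose was a receptor or the DNA-binding partner: Notch1 went from 7.18 and 5.82 to 15.9 and 16.6 FPKM, Notch2 from 2.37 and 1.92 to 4.75 and 4.53 FPKM and Rbpj from 28.3 and 28.3 to 70.7 and 69 FPKM. Notch3, Dll3 and Jag2 did not pass both fits. In the retinoic acid pathway 2 of 9 rose and 4 fell, and after cyclic loess 1 was higher and 4 lower. The cellular retinoic acid binding proteins Crabp2 (40.6 and 43.5 to 8.06 and 8.52 FPKM) and Crabp1 (59.7 and 68.5 to 17.4 and 16.9 FPKM) fell, with log2 differences of -2.42 and -2.05. The receptors Rara, Rarg and Rxra did not pass both fits.

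Polycomb genes, whose products silence developmental genes by modifying histones, had 12 of 26 members higher and 3 lower (16 and 5 after cyclic loess). Mtf2, which recruits the PRC2 complex to CpG islands, rose from 56.7 and 54.1 to 142 and 149 FPKM (1.15, SE 0.05). The PRC2 subunits Suz12 and Jarid2 rose by 0.38 and 0.61, and the chromobox proteins Cbx2 and Cbx7 by 1.00 and 0.56. In the authors' deposited table Cbx7 did not pass (p adjusted here 0.0763). The methyltransferase Ezh2 did not pass both fits (94.3 and 96 against 111 and 110.1 FPKM), whereas its paralogue Ezh1 fell from 50.5 and 49.2 to 39.2 and 35 FPKM. Among 18 cofactors of LSD1 and the NuRD complex, 4 rose and 4 fell. Hdac2 (-0.49) and Chd4 (-0.47), a deacetylase and the remodelling ATPase of NuRD, fell, and the acetyltransferases Ep300 (0.41) and Crebbp (0.25) rose. Crebbp had no call after cyclic loess (0.08) or after scaling with the replicate block. After cyclic loess 4 of the 18 were higher and 7 lower, with a median of 0.01.

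Germ cell genes were counted in 2 lists. Among 12 genes of primordial germ cell specification 6 rose and 4 fell, and after cyclic loess 7 were higher and 2 lower. Prdm14 (9.52 and 9.91 to 15.8 and 17.4 FPKM), Prdm1 (5.42 and 4.46 to 8.19 and 8.62 FPKM) and Tfap2c (30.9 and 31.8 to 55.4 and 63.4 FPKM), the 3 factors that specify these cells, rose. Of 23 tested genes of meiosis and the piRNA pathway 2 rose and 10 fell (median -0.39). Smc1b, a meiotic cohesin, fell from 17.8 and 15.4 to 7.14 and 7.5 FPKM, and Stra8, which licenses entry into meiosis, from 2.9 and 2.42 to 1.21 and 1.29 FPKM. Mael and Tdrd12, of the piRNA pathway, fell (-0.84 and -0.73). Tex19.1 and Sycp1 were the 2 that rose (0.54 and 0.50). In the X-linked Rhox homeobox cluster 2 of 13 tested members rose and 9 fell. Rhox2a fell from 13.2 and 15.4 to 4.42 and 5.14 FPKM, whereas Rhox6 (33.7 and 36.9 to 59.5 and 59.3 FPKM) and Rhox9 (40.8 and 45.2 to 69.5 and 67.3 FPKM) rose; Rhox5, the most abundant, did not pass both fits (419 and 407 against 406 and 383 FPKM, -0.29 after scaling and 0.19 after cyclic loess). The Rhox2 and Rhox4 genes are near-identical copies whose reads may have been split between them, so their single values are uncertain. Of 16 imprinted genes 5 rose, led by the zinc-finger gene Plagl1 (4.08 and 3.24 to 14.3 and 13.4 FPKM), and 6 fell.

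Glycolysis and hypoxia genes were lower. Cells short of oxygen stabilise HIF factors, which bind promoters of glycolytic enzymes and of genes for acid and oxygen balance. Of 20 tested glycolysis and glucose transport genes, 0 rose and 16 fell (median -0.81). After cyclic loess the median was -0.33, with 1 higher and 17 lower. Slc16a3, the lactate exporter MCT4, fell from 57.2 and 51.6 to 19.4 and 31.3 FPKM. The kinases Pfkl and Pgk1 fell from 113 and 112 to 64.8 and 75 FPKM and from 628 and 572 to 356 and 385 FPKM. Ldha, which makes lactate, measured 669.5 and 623 FPKM in the floxed libraries and 332 and 380.2 FPKM in the others. Of 19 hypoxia-induced genes 2 rose and 14 fell (median -0.66, and -0.69 after cyclic loess). The largest falls were in Ndufa4l2, a HIF target of the mitochondrion (54.7 and 54 to 6.04 and 9.11 FPKM), the peptide hormone Adm (6.81 and 7.1 to 0.55 and 0.918 FPKM) and Ndrg1 (34.3 and 35.2 to 13.3 and 14.4 FPKM). P4ha1, a prolyl hydroxylase of collagen, fell from 73.9 and 74.3 to 36.3 and 38.8 FPKM. Ak4, an adenylate kinase of the mitochondrion, rose against the list from 40.0 and 40.9 to 88.7 and 89.9 FPKM, and Kdm3a, a histone demethylase, rose by 0.46.

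The core of the hypoxia response element, ACGTG, was searched on both strands of the same windows. The palindrome CACGTG, an E-box, holds it on both strands and counts as overlapping matches. The core occurred in 12 of 19 matched glycolysis genes and 14 of 16 matched hypoxia genes, against 21.8% of all genes of the table. A gene counts here if any of its windows holds the core. By window the shares were 46.9% for glycolysis and 60.0% for hypoxia genes, against 19.6% of all windows. The windows of Ldha (chr7:46845554-46845853, plus strand) and P4ha1 (chr10:59323046-59323345, plus strand) are shown as members that fell, 1 with 5 matches and the other with 1. A second window of Ldha in the table held 0. The windows of Adm and Pfkl, which also fell, held 0 matches each, and that of Ak4, which rose, held the letters. A link between the letters and the direction of change was not tested. Capitals mark every match on either strand.
Ldha: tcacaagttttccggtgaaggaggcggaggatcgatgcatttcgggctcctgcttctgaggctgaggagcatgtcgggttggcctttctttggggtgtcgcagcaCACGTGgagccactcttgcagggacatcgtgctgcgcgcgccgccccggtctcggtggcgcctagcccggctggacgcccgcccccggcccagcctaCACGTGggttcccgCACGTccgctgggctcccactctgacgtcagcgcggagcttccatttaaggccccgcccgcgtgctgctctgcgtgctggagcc
P4ha1: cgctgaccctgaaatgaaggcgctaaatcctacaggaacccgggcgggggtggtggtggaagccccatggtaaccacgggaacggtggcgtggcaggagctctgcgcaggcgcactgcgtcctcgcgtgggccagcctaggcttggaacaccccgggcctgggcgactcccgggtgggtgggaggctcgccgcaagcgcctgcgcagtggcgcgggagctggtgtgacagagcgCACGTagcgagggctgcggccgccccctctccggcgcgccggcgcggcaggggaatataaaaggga
The match of P4ha1 begins 16 bases before the start. The forkhead letters TGTTTAC, searched the same way in the largest rises and falls, occurred in 0 of 17 matched rises and in 1 of 15 matched falls (Pdpn), against 4.1% of all genes. No match in this window says nothing of binding elsewhere. Ajuba, which rose but is not among the largest rises searched, holds these letters in the window shown above, as gtaaaca.

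All 78 rows of cytoplasmic ribosomal proteins fell, within a range of -0.95 to -0.48 (median -0.59). They made up 17.1% and 16.8% of summed FPKM in the floxed libraries and 14.0% and 13.3% in the others. After cyclic loess their median was -0.02, with 3 higher and 13 lower, so the call of most members ended there. Of these rows, 42 join several gene symbols, since ribosomal proteins have many processed pseudogenes, and those values are uncertain. Of 77 nuclear-encoded genes of the respiratory chain and ATP synthase 68 fell and 0 rose (median -0.54). After cyclic loess the median was -0.17, with 3 higher and 49 lower. Atp5g1, a subunit of the ATP synthase ring, fell from 375 and 396 to 233 and 238 FPKM, and Sdhd, of complex II, from 165 and 176 to 112 and 111 FPKM.

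The 13 protein-coding genes of the mitochondrial genome went the other way: 8 rose and 0 fell (median 0.67, and 1.24 with 13 higher after cyclic loess). They took 1.86% and 1.23% of summed FPKM in the floxed libraries and 2.53% and 2.49% in the libraries labelled Foxd3-/-. The floxed libraries differed between themselves here. ND4, a subunit of complex I, measured 168 and 102 FPKM in the floxed libraries and 373 and 446 FPKM in those labelled Foxd3-/-. COX1, a subunit of complex IV, did not pass both fits, at 2695 and 1889 against 2827 and 2481 FPKM. For ND4L and COX2 (the mitochondrial gene) the FPKM and mean-read ratios part by over 1.

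Replication-dependent histone genes, whose messages mostly end in a stem-loop without a poly(A) tail, fell in all 44 rows tested (median -1.09, and -1.28 after cyclic loess), 18 of them at least 2-fold in both fits. Their sum was 188 and 238 FPKM in the floxed libraries and 76.6 and 79.8 in the others. The libraries were made from polyadenylated RNA. Hist1h2bk measured 16.8 and 15.1 FPKM in the floxed libraries and 5.36 and 6.7 in those labelled Foxd3-/-. Of the 44 rows 34 join several symbols and 8 have FPKM and mean-read ratios that part by over 1, and their median exon length was 508 bases. All tested genes under 1 kb had a median of -0.47 after scaling and -0.31 after cyclic loess, so neither value of the histones is free of length. RNA quality values per library were not at hand, and the part of RNA quality in the histone and mitochondrial results was not tested.

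Cell cycle and stress genes showed smaller shifts. Of 28 cell cycle genes 2 rose and 10 fell, and after cyclic loess 6 were higher and 9 lower. Beside Ccnd1, the kinase Cdk6 fell from 7.07 and 6.26 to 3.93 and 4.06 FPKM, and the replication helicase subunits Mcm2 and Mcm6 fell (-0.62 and -0.64). Of 19 p53 targets 4 rose and 8 fell, and after cyclic loess 6 were higher and 8 lower. Pmaip1 (Noxa), a promoter of apoptosis, fell from 7.7 and 8.96 to 3.76 and 2.97 FPKM, and Perp rose from 3.65 and 5.44 to 9.59 and 9.59 FPKM. Among 18 ATF4 response genes 4 rose and 7 fell. Chac1 (1.64 and 0.779 to 4.95 and 4.67 FPKM) and Trib3 (10.8 and 9.3 to 26 and 26.9 FPKM), which are induced under stress, rose, whereas Slc3a2, an amino acid transporter subunit, fell from 131 and 128 to 87.1 and 82.9 FPKM. Of 26 sterol genes 4 rose and 10 fell, and after cyclic loess 9 were higher and 10 lower. The cholesterol exporter Abcg1 fell from 13.1 and 12.8 to 1.37 and 1.6 FPKM. Of the other forkhead genes, Foxn4 fell from 8.09 and 7.05 to 1.51 and 1.69 FPKM and Foxo4 rose from 8.04 and 8.01 to 12.8 and 14.5 FPKM; in the whole family of 18 tested members 3 rose and 2 fell, against 2 higher and 6 lower after cyclic loess.

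The 40 largest rises and falls included 3 genes whose FPKM and mean-read ratios part by over 1, Txnrd3, Ept1 and Pet117, which are not described further. Of the other 37, Aspa, which splits N-acetylaspartate, rose from 0.439 and 0.359 to 12 and 11.3 FPKM (3.04). Htra1, a secreted serine protease, rose from 4.96 and 5.92 to 40.6 and 40.1 FPKM, and Ly6a (Sca-1), a surface antigen of stem and progenitor cells, from 9.07 and 11.7 to 64.5 and 66.5 FPKM. L1td1, an RNA-binding protein derived from a retrotransposon, rose from 17.8 and 11.7 to 68.6 and 89.8 FPKM. Among genes that passed the rule for the largest changes (a mean of at least 5 FPKM, 1 symbol, groups that do not overlap), the largest fall was in Rasd1, a Ras-like GTPase, from 26.2 and 23.7 to 1.14 and 1.26 FPKM (-3.73, SE 0.09). Gadd45g, a stress and differentiation gene, fell from 90.4 and 127 to 11.4 and 9.58 FPKM, and its paralogue Gadd45b from 87.3 and 115 to 59 and 52.6 FPKM. Igfbp4, a binding protein of insulin-like growth factors, fell from 30.2 and 28.6 to 2.43 and 2.62 FPKM. The glutathione peroxidase Gpx2 fell from 319 and 262 to 57 and 67.8 FPKM, and Calb2 (calretinin) from 28.7 and 30.5 to 3.44 and 4.21 FPKM. The rule that chose the largest rises and falls required that the 2 groups did not overlap; Gadd45b was chosen as a member of the Gadd45 family.

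The same contrast was measured in SL, medium with 15% serum and LIF on irradiated fibroblast feeders, with its own 4 libraries and no shared control. The test of the difference between media covered 11130 genes. In both fits the change was higher in 2i for 1138 genes (10.2%) and lower in 2i for 574 (5.16%). As deposited 2774 genes passed, a count that fell to 632 without Foxd3-/- 2i replicate 2, 862 without floxed 2i replicate 2, 1140 without Foxd3-/- 2i replicate 1, 1683 without floxed 2i replicate 1 and 1826 without Foxd3-/- SL replicate 1. Foxd3 measured 1.62 and 1.83 FPKM in the SL libraries labelled Foxd3-/- and 4.53 and 4.81 FPKM in the SL floxed libraries. Its log2 difference was thus -1.06 in SL as deposited, and the gap of 0.97 between media passed (limma adjusted p = 0.0074; 0.82 and 0.0126 after scaling). Of the 37 large rises and falls, 36 were tested in both media. The change differed in both fits for 16 of 19 rises and 17 of 17 falls. Since these genes were chosen for the size of their change in 2i, that count describes them and supports nothing. Rasd1 stood at 0.895 and 1.27 FPKM in the SL floxed libraries and 1.54 and 2.22 FPKM in the SL libraries labelled Foxd3-/-. Gadd45g was at 4.48 and 5.999 FPKM against 9.16 and 11.2 FPKM there. Both therefore lay on the other side of 0 in SL. Starting levels also differed between media. Cyr61 measured 39.6 and 41.2 FPKM in the SL floxed libraries, against 4.53 and 5.64 FPKM in the 2i floxed ones. The part of the starting level in the gaps was not tested. For Ly6a, Aard and Lcp1 the difference did not pass both fits, and the scaled log2 difference of Ly6a was 1.47 in SL and 2.34 in 2i. Medium, serum and feeders differ together between the tables and cannot be told apart.

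**Figure D5:**
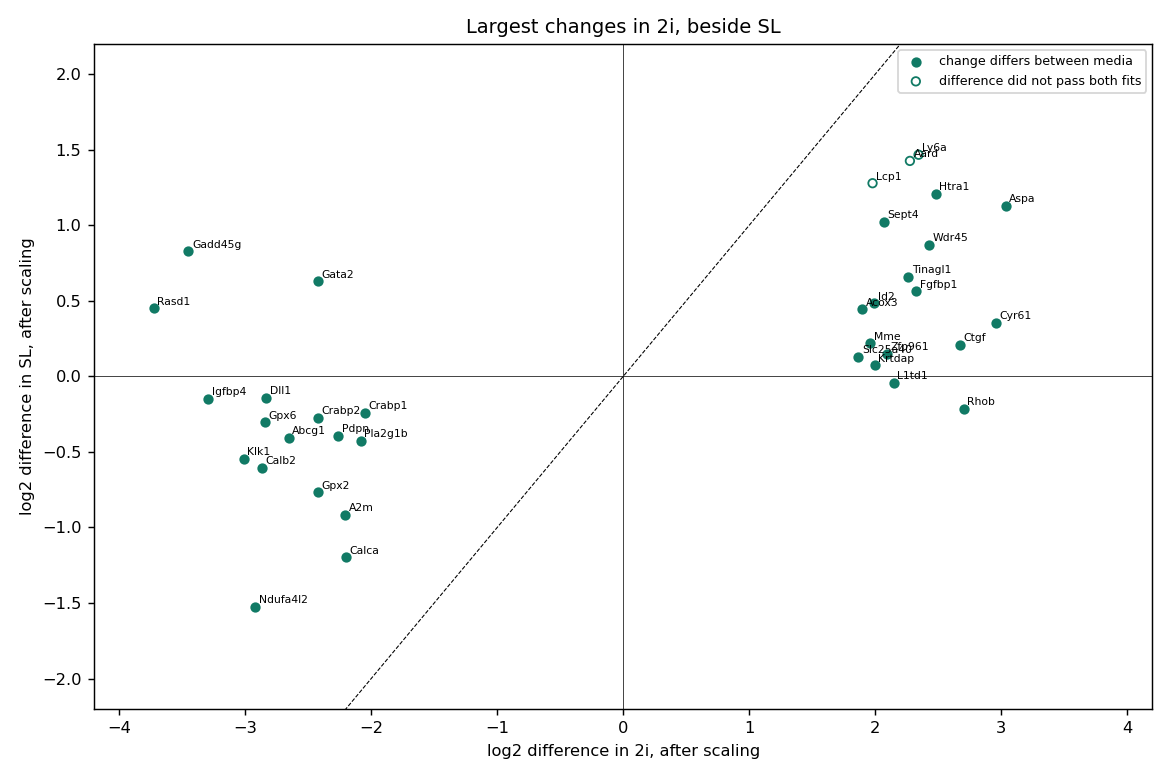
Log2 difference after scaling in SL (vertical axis) against that in 2i (horizontal axis) for the 36 largest rises and falls of 2i measured in both media, filled where the difference between media passed in both fits; the dashed line marks equal changes. Gadd45g, Rasd1 and Gata2 lie below 0 in 2i and above 0 in SL, Rhob and L1td1 the reverse, and every gene drawn lies nearer to 0 in SL than in 2i.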

How the data were processed

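Per the file headers, the authors deposited 1 table per comparison with FPKM per library, a mean read signal per group, a signed fold change given as a ratio (a score here) and a p-value; the medium was taken from the table's name. Per the submitters' processing notes, the tools named were TopHat2, Cufflinks, DESeq2, SAMtools and FastQC, without versions, and the builds mm10 and GRCm38. Here log2(FPKM + 1) was fitted with limma-trend (limma 3.58.1, R 4.3.3), 2 libraries against 2, for genes with a mean of at least 1 FPKM in a group, and adjusted by Benjamini and Hochberg at 0.05. No count test was run, since FPKM is not a count. With 2 against 2 libraries an exact permutation test cannot go below p = 0.3333. IDs were matched to GENCODE M21 (19513 of 19718). Fits were repeated after median-of-ratios scaling and under the alternatives of the closing section. The script was also run on simulated data with few changed genes and the same shift for every gene. The change in these data depended on level, so that run checks the code only and does not bear on the results.

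Deviations of same-numbered libraries correlated at -0.05 across genes, so the replicate numbers were not taken to pair libraries. Motifs were searched in RefSeq promoter windows.

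The members and the 47 lists were chosen with earlier results of these data known. The genes named are Foxd3, the 20 largest scaled rises and the 20 largest falls (both fits, no overlap, mean of at least 5 FPKM, single symbol), and up to 6 members per list by size among those that passed. The following were named beyond that rule for their role, after their values were seen: Actb, Axin2, Cbx7, COX2, Dppa4, F3, Hey1, Il6st, Jag1, Jak1, Jarid2, Kdm3a, Klf2, Klf5, Lfng, Lifr, Nanog, Notch2, Nuak2, Otx2, Prdm1, Rhox6, Rhox9, Socs3, Spred1, Suz12, Sycp1, Tead2, Tet1, Tet3, Tex19.1, Yap1 and Zic2.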

Additional observations from a re-analysis of the deposited data

Results flagged for a closer look

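In limma's test of the difference of the change between 2i and SL, 1138 genes were higher and 574 lower in 2i in both fits. Of these, Foxd3 and 10 genes chosen for the size of their change in 2i are given here. Since that choice used the change in 2i, the values of those 10 describe them and support nothing. The values here are the log2 difference in 2i minus that in SL, as deposited. Foxd3 stood at 0.966 (adjusted p = 0.0074), from -0.092 in 2i and -1.058 in SL. The rises gave 2.037 for Aspa, 2.788 for Cyr61, 3.073 for Rhob, 2.636 for Ctgf and 1.46 for Htra1. Of these, Rhob had a change of -0.192 in SL, and the other rises were also positive there. The falls gave -4.022 for Rasd1, -4.083 for Gadd45g, -2.979 for Igfbp4, -2.285 for Klk1, a tissue kallikrein, and -1.207 for Ndufa4l2. Rasd1 and Gadd45g were positive in SL, at 0.464 and 0.846. Starting levels differed between media. In the SL floxed libraries Rasd1 stood at 0.895 and 1.27 FPKM and Klk1 at 2.71 and 1.15 FPKM, which left little room to fall. Cyr61 stood there at 39.6 and 41.2 FPKM, Ctgf at 59.0 and 59.0 FPKM and Rhob at 17.7 and 22.8 FPKM. The part of the starting level in these gaps was not tested. Medium, serum and feeders differ together between the tables and cannot be told apart.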

How the results depend on the processing

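After median-of-ratios scaling, 3555 genes were higher and 3903 lower, with 315 and 287 at least 2-fold. Scaling together with a replicate block gave 3423 and 3799, with 317 and 291. The numbers did not pair the libraries. With the replicate block alone the counts stayed within 1.5 times of those as deposited in 2i, but 4940 genes differed between media in place of 2774. Cyclic loess, added after seeing the data, gave 3231 higher, with 237 and 391 at least 2-fold. A pseudocount of 0.1 gave 1220 and 321 at least 2-fold, since low genes then change more. The authors' deposited table, with its p-values adjusted here, gave 3980 lower, and 1181 and 695 at least 2-fold. These counts cover all 19718 genes of that table, not only the 11637 tested. Their 2-fold limit was set on the authors' fold, not on log2(FPKM + 1), so the counts are not like for like. Foxd3 was at 0.766 in the authors' deposited table and at -0.446 after cyclic loess, and from -0.175 to -0.008 when each library in turn was left out. Leaving out a library gave 632 to 3553 genes that differ between media. In 2i it gave 4565 to 5490 higher and 1877 to 2297 lower genes.

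Signs turned for the genes below. Each setting was compared with the fit as deposited. Ept1 and Actb passed in both, at -2.661 and -0.193 as deposited. The others passed either as deposited or in the setting compared, but not in both. Between other settings, some passed with opposite signs. Pou5f1 was at -0.311 after scaling and 0.174 after cyclic loess, and Rhox5 at -0.293 and 0.188. Fn1 was at -0.151 in the authors' deposited table and 0.307 after cyclic loess. After scaling Dppa3 was at -0.082 and Ezh2 at -0.009, both also with the replicate block, where Fn1 was at -0.142. In the authors' deposited table Dppa3 was at -0.098, Ezh2 at -0.014, Fn1 at -0.151 and Ept1 at 0.333. After cyclic loess Actb was at 0.11, Pou5f1 at 0.174, Rarg at -0.012 and Rhox5 at 0.188. Of the 5846 genes that passed both fits, 4657 kept direction and call after cyclic loess and 4 passed in the opposite direction. With a library left out after scaling, 4771 to 5566 of them kept both. The cause of these changes of sign and call was not tested. Cyclic loess removes differences that depend on the expression level, whatever their source. Depth per library is unknown, so no limit from counting error can be given.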
